A study of Mus musculus with 4 samples.

Results

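The members described here are the V and J gene segments of the T cell receptor alpha chain. They are the 91 TRAV and 43 TRAJ segments named in productive alpha contigs of lung CD4 T cells, 134 of the 168 V and J segments that productive contigs of all chains carried. A contig is a receptor transcript assembled from 1 droplet barcode, and a productive contig has an open reading frame through the junction. The cells came from C57BL/6 mice and were sorted as live CD4+ T cells from 2 kinds of lung. The tumor library came from lungs taken 3 weeks after TC1 tumor cells, a transplantable mouse lung line, had been given by tail vein, and the normal library came from lungs of untreated age-matched animals. From each lung suspension both 5′ transcripts and T cell receptor transcripts were sequenced, and the labels do not give the sex of the animals, their age or the number pooled. With 1 library per tissue, tissue and batch cannot be told apart, there is no replicate check, and no p-value is given. Intervals are 95% counting intervals and cover counting error alone.

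An alpha chain is made in the thymus when recombination joins 1 V segment to 1 J segment, with bases trimmed from both ends and a few others added between them. V and J lie in one array on chromosome 14 with no D segment between them. A cell can recombine the same locus again, joining a V farther upstream to a J farther downstream and deleting what lay between, until the receptor is positively selected or the cell dies. The stretch that spans the join is the third complementarity-determining region (CDR3), which contacts the peptide. Most joins differ from cell to cell, but invariant natural killer T (iNKT) cells carry TRAV11 with TRAJ18 and see lipids on CD1d, and mucosal-associated invariant T (MAIT) cells carry TRAV1 with TRAJ33 and see vitamin B metabolites on MR1. Foxp3 is the transcription factor that defines regulatory T cells.

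The tumor library held 7540 productive alpha contigs in 6591 cells and the normal library 7142 in 6329 cells, with 36727 and 27965 contig UMIs (distinct molecules) and medians of 4 and 3 per contig. Counting each CDR3 nucleotide sequence once left 6647 and 6437 distinct sequences, 91.7% and 92.6% of them seen in 1 cell. All shares below are shares of such sequences unless cells are named. Classes by Foxp3 used the 7135 and 7082 cells kept by filters on detected genes, mitochondrial share and chain number. In the tumor library 1147 kept cells had 1 or more Foxp3 UMI and 5988 had no Foxp3 UMI, at median depths of 4725 and 4112 UMIs, and gave 849 and 5314 distinct alpha sequences. In the normal library the classes held 206 and 6876 cells at 3996 and 3905 UMIs and gave 166 and 5629 sequences. The 8 CD4 T cell markers summed to 3799 to 4123 CPM (the UMI share scaled to a fixed total) in the 4 classes, and summed marker lists of B, NK, myeloid, CD8 and gamma-delta T cells reached at most 25.8 CPM in any class. The 9 regulatory T cell markers, among them Foxp3 itself (787 CPM in the tumor and 563 CPM in the normal Foxp3-positive class, and 0 elsewhere by the rule), summed to 6672 CPM in the Foxp3-positive tumor class and 557 in the other, and to 2768 and 287 CPM in the normal library. The 14 innate-like T cell markers summed to 2303 and 601 CPM, and to 926 and 518 CPM. Icos (747 CPM), Il2rb (724) and Id2 (549), which regulatory T cells also express, made up most of the first sum, whereas Zbtb16 was at 1.62 against 1.98 CPM, and Klrb1c, Klrk1 and Il4 had 0 UMIs in that class.

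On GRCm38.p6 (mm10) the 91 V segments spanned chromosome 14 from 52427967 to 53876752 and the 43 J segments from 54157280 to 54217901. J numbers fall along the chromosome, so that TRAJ58 lies nearest to the V array and TRAJ2 nearest to the constant region. In C57BL/6 much of the V array is present in several copies, whose segments carry D or N in their names. The positions gave 5 blocks: 7 upstream segments from TRAV1 to TRAV6-2, 32 in the D cluster, 14 in the N cluster, 33 in the cluster next to them on the J side, called the 3' cluster here, and 5 downstream segments from TRAV3-4 to TRAV21-DV12.

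The sequences that the later results turn on are shown first, 5′ to 3′ from the first to the last codon of the CDR3. The TRAV11–TRAJ18 sequences are shown because they join in nearly the same way in different cells, and capitals mark the positions at which the 8 sequences of 45 bases differed from one another.
iNKT alpha, 6 tumor and 1 normal cells: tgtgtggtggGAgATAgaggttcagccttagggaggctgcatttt
iNKT alpha, 3 tumor and 4 normal cells: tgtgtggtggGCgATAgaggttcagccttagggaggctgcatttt
iNKT alpha, 3 tumor and 2 normal cells: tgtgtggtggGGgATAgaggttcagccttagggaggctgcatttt
iNKT alpha, 2 tumor and 1 normal cells: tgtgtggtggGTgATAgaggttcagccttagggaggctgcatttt
The 4 TRAV13D-2–TRAJ27 sequences that follow are those in most tumor cells, shown because this pair had the highest share of Foxp3-positive cells among the 5 most used tumor pairs, those for which that share was computed. Capitals mark the bases that matched neither the V end nor the J end, and lower case marks the matched bases.
TRAV13D-2–TRAJ27, 30 tumor cells: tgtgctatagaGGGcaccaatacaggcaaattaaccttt
TRAV13D-2–TRAJ27, 12 tumor cells: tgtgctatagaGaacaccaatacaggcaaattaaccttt
TRAV13D-2–TRAJ27, 4 tumor cells: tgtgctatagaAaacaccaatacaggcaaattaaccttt
TRAV13D-2–TRAJ27, 4 other tumor cells: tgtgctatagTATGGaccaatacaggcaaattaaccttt
The next 4 are the other sequences carried by most cells among those found in both libraries. They hold no base that neither segment end could supply, which is more frequent in sequences found in both libraries, as given below.
TRAV9-1–TRAJ22, 1 tumor and 43 normal cells: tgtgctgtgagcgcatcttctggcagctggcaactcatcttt
TRAV14D-2–TRAJ22, 7 tumor and 6 normal cells: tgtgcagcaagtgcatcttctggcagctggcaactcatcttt
TRAV14-2–TRAJ27, 6 tumor and 6 normal cells: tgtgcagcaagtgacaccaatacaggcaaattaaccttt
TRAV7-4–TRAJ30, 5 tumor and 7 normal cells: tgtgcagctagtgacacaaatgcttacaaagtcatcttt

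Usage of V families was nearly the same in both lungs. TRAV7 made up 15.5% of sequences in the tumor and 15.3% in the normal library, TRAV6 15.2% and 15.5%, and TRAV14 13.01% and 14.3%. TRAV9, TRAV13, TRAV12 and TRAV4 followed with 7.87% to 8.88% in the tumor library and 7.89% to 8.72% in the normal library. TRAV1 and TRAV11, the families of the 2 invariant chains, were rare. TRAV1 gave 22 sequences (0.331%, 0.208 to 0.501) in the tumor library and 15 (0.233%, 0.130 to 0.384) in the normal library. Of 19 families expected at 10 or more sequences, 1 (5.26%) differed by 1.5-fold or more, and no interval of a family ratio lay wholly on one side of 1. That family was TRAV11, with 18 tumor sequences (0.271%) and 28 normal ones (0.435%), a ratio of 0.623 (0.324 to 1.17).

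**Figure D1:**
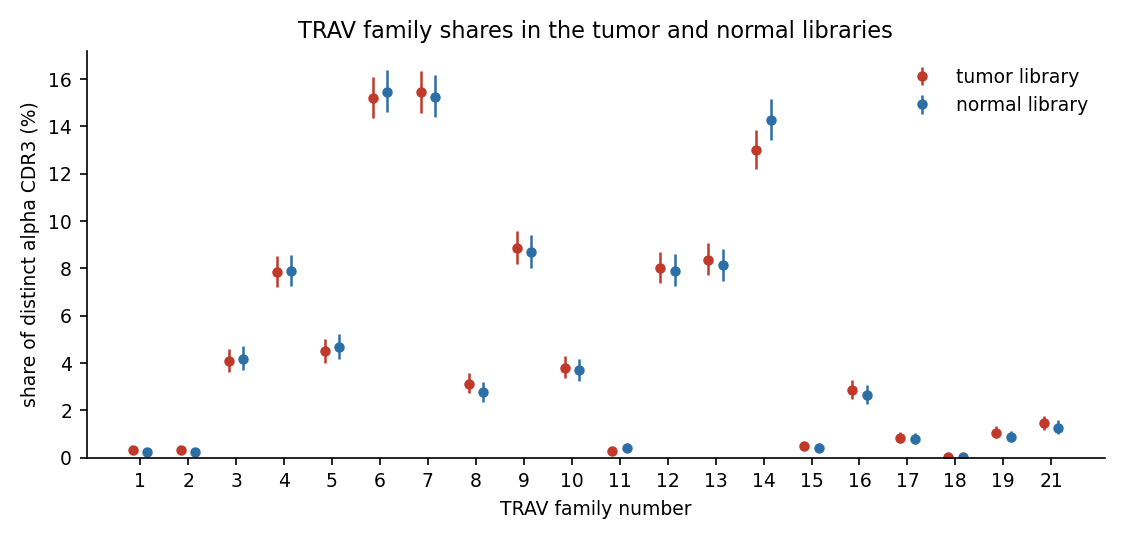
Share of distinct alpha CDR3 sequences (%) for each TRAV family in the tumor (red) and normal (blue) libraries, with 95% Clopper-Pearson intervals as bars. TRAV6, TRAV7 and TRAV14 lead in both libraries, and the points of a family lie close together.

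At the level of single V segments the spread was wider but still small. The most used V segment in both libraries was TRAV7D-2 (52683964 to 52684472, the first segment of the D cluster), with 4.41% of tumor and 4.58% of normal sequences. The 10 most used V segments over both libraries were TRAV7D-2, TRAV6-6, TRAV6N-7, TRAV4D-4, TRAV13-1, TRAV14N-3, TRAV4-4-DV10, TRAV5-4, TRAV9-1 and TRAV6-7-DV9. The 10 leading V segments of each library took 28.7% of tumor and 28.9% of normal sequences. Of 81 segments with enough sequences, 4 (4.94%) differed by 1.5-fold or more. The intervals of 8 of the 81 ratios lay wholly on one side of 1, and 1 of these was also past the fold. TRAV9D-3 was lower in the tumor library, 33 against 58 sequences and a ratio of 0.551 (0.348 to 0.859). TRAV6-1 (2.21, 0.862 to 6.36), TRAV9D-1 (1.54, 0.879 to 2.76) and TRAV11 (0.646, 0.335 to 1.22) had intervals that included 1.

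Among J segments TRAJ31 (54187895 to 54187951) was used most, with 6.00% of tumor and 6.45% of normal sequences. TRAJ37, TRAJ27, TRAJ23, TRAJ22, TRAJ34, TRAJ40, TRAJ42, TRAJ15 and TRAJ39 completed the 10 most used over both libraries. No J segment of 43 (0%) reached a 1.5-fold difference between the libraries. The ratios ran from 0.698 for TRAJ7 (0.517 to 0.939) to 1.499 for TRAJ5 (1.001 to 2.26). The intervals of 4 of the 43 lay wholly on one side of 1. TRAJ18 gave 2.09% and 2.08% of sequences, and TRAJ33 2.26% and 2.13%. The V-J pairs were spread widely, with 2124 tumor and 2111 normal pairs seen of 3913 possible ones. The most used tumor pair, TRAV7D-2–TRAJ37, held 30 sequences (0.451%) and 17 (0.264%) in the normal library. TRAV6-6–TRAJ31 (24 and 13), TRAV13D-2–TRAJ27 (23 and 11), TRAV7-4–TRAJ31 (21 and 13) and TRAV14N-3–TRAJ31 (19 and 12) were the next tumor pairs. In the normal library TRAV7D-2–TRAJ15 (22 sequences, 18 in the tumor library), TRAV7D-2–TRAJ22 (19 and 18), TRAV6N-7–TRAJ23 (18 and 18), TRAV6-5–TRAJ31 (17 and 13) and TRAV6N-7–TRAJ31 (17 and 9) led. TRAV13D-2–TRAJ27 exceeded the product of its segment shares most among these, by 3.102 times in the tumor library.

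V and J were not joined independently of their place in the locus. V segments nearest to the J array were joined mainly to the J segments nearest to them, and V segments farther away to J segments deeper in the array. In the tumor library TRAJ40 and above made up 80.7% (75.2 to 85.5) of the joins of downstream V segments, 42.4% (40.8 to 44.2) of the 3' cluster, 16.7% (14.3 to 19.2) of the N cluster, 17.9% (16.2 to 19.6) of the D cluster and 9.38% (5.65 to 14.4) of upstream V segments. The normal library gave 83.7%, 41.5%, 14.2%, 17.5% and 8.72% for the same blocks. The D and N clusters had overlapping intervals in the tumor library. Over sequences, the Spearman correlation of V position with J number was 0.462 (n = 6647) in the tumor library and 0.441 (n = 6437) in the normal library, given as a description since sequences of a library share its cells and animals.

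The number in a V name carried less of this order than its position did. Grouped by number, TRAV1 to TRAV5 had 34.5% (31.8 to 37.4) TRAJ40 and above in the tumor library and 32.7% (29.98 to 35.6) in the normal library. TRAV6 to TRAV14 had 28.97% and 27.4%, and TRAV15 to TRAV23 59.2% (54.4 to 63.7) and 56.5% (51.4 to 61.5). The Spearman correlation of family number with J number was 0.0896 and 0.0774. Copies of 1 name at different places also differed, as TRAV14-3 shows. TRAV14D-3-DV8 (from 53078547) had 11.96% TRAJ40 and above, TRAV14N-3 (from 53370077) 18.1% and TRAV14-3 (from 53763196) 79.3% in the tumor library, and 13.9%, 15.3% and 78.5% in the normal library. TRAV6N-7 had 16.02% and TRAV6-7-DV9 68.6% in the tumor library. Over names with 10 or more sequences in at least 2 copies, the copy nearest to J had the higher share in 21 of 29 names in the tumor library and in 20 of 30 in the normal library. Copies named by the assembler can be nearly identical in sequence, so single copy names are less certain than family names.

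**Figure D2:**
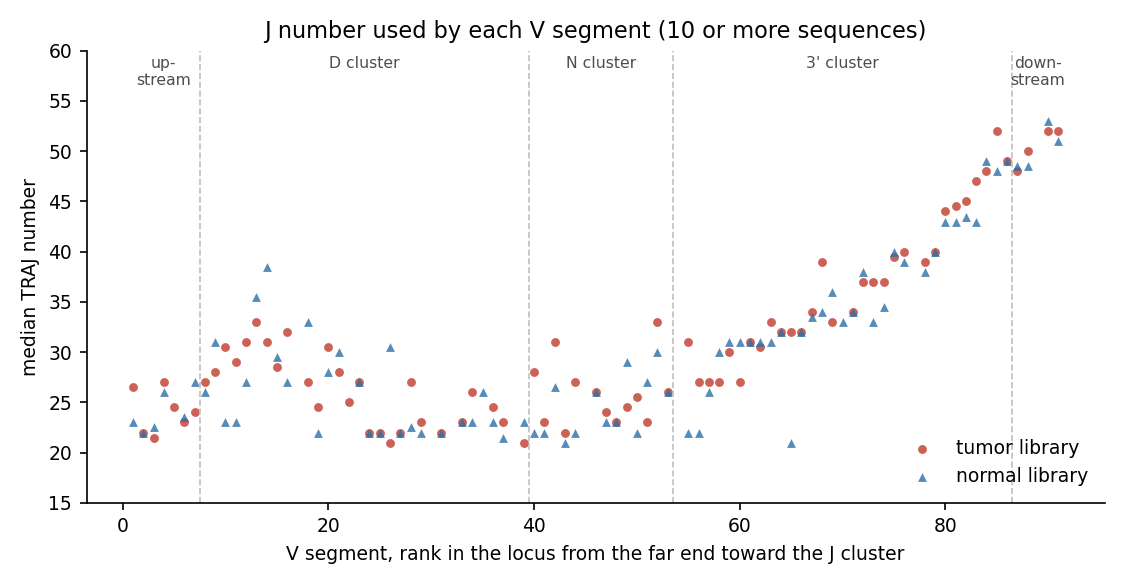
Median TRAJ number (y axis) of each V segment with 10 or more sequences, in order along the locus (x axis, rank from the far end toward the J array), for the tumor (red circles) and normal (blue triangles) libraries, with dashed lines between the 5 blocks. The medians climb through the 3' cluster and reach 52 at TRAV21-DV12 in the tumor library.

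The order was not a single slope. In the D cluster some segments on the far side used higher J numbers than those on the J side. TRAV8D-1, TRAV9D-1 and TRAV7D-5, at ranks 13, 14 and 18 of 91 along the locus, had 40%, 37.1% and 30.5% TRAJ40 and above in the tumor library and 44.7%, 50% and 40% in the normal library. TRAV12D-3, TRAV14D-2 and TRAV3D-3, at ranks 27, 29 and 31, had 11.3%, 8% and 9.85%, and 11.2%, 11.1% and 9.29%. These 6 segments were picked after their values were seen, and the first 3 had 22 to 60 sequences per library. Others went against the pattern, with 16.4% and 16.9% for TRAV7D-2 at rank 8 and 8.33% and 9.52% for TRAV12D-1 at rank 19.

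A second measure came from contigs marked as not productive, which the comparisons above did not use. A join out of frame or with a stop codon gives such a contig, and so can an incomplete assembly. These were not separated here. Counted once per cell, V and J, there were 2702 of them in the tumor and 2279 in the normal library. Their share of TRAJ40 and above followed the same blocks: 10.5%, 19.2%, 20.6%, 34.7% (32.1 to 37.3) and 74.6% (62.9 to 84.2) from upstream to downstream V in the tumor library, and 4.76%, 17.7%, 19.1%, 36.6% and 76.6% in the normal library. In the 3' cluster the productive share was the higher one, 42.4% (40.8 to 44.2) against 34.7% in the tumor library and 41.5% (39.7 to 43.3) against 36.6% (33.7 to 39.6) in the normal library, where the intervals nearly met.

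**Figure D3:**
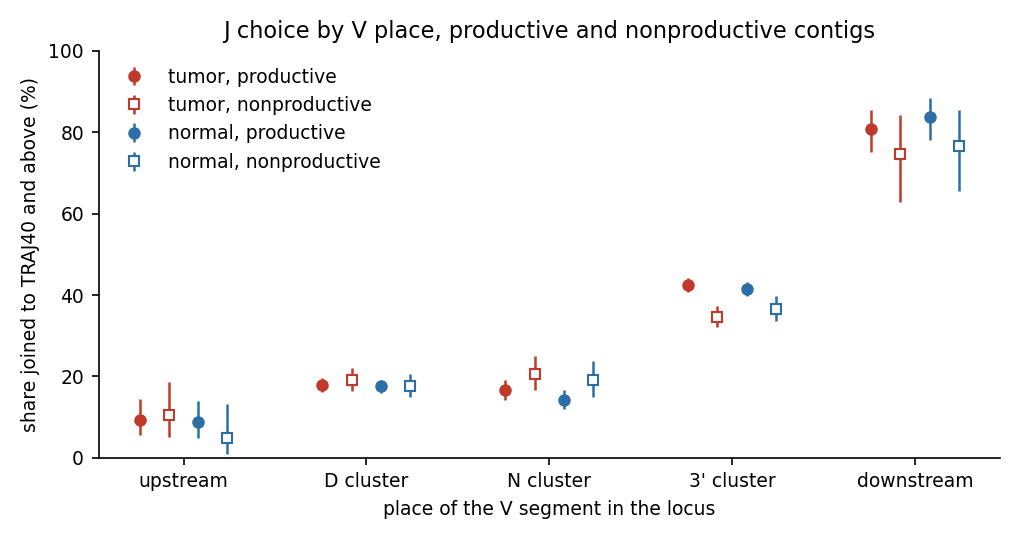
Share of joins to TRAJ40 and above (%) by place of the V segment, for productive (filled circles, over distinct sequences) and nonproductive (open squares, over cell, V and J) contigs of the tumor (red) and normal (blue) libraries, with 95% intervals. All 4 series are lowest upstream, at 4.76% to 10.5%, and highest downstream, at 74.6% to 83.7%.

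Usage itself differed more between productive and nonproductive contigs than between tissues. Past 1.5-fold in either direction were 9 of 18 families (50%), 10 of 43 J segments (23.3%) and 40 of 75 V segments (53.3%) in the tumor library, and 9 of 17 families (52.9%), 10 of 43 J segments (23.3%) and 32 of 65 V segments (49.2%) in the normal library. TRAV14 took a larger share of productive sequences, 2.06-fold (1.74 to 2.44) in the tumor library and 2.12-fold (1.79 to 2.54) in the normal library. TRAV12 (0.610 and 0.637), TRAV13 (0.607 and 0.600) and TRAV3 (0.573 and 0.465) took smaller ones. TRAV13D-3 gave 6 productive sequences and 42 nonproductive contigs in the tumor library, and 10 and 39 in the normal library. TRAJ32 was also lower among productive sequences, at 0.541 and 0.520. The counting units differ, since expanded cells repeat a nonproductive contig, and this part of the difference was not tested.

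Cells with 2 productive alpha chains allowed both alleles of a cell to be set side by side, 751 cells in the tumor and 601 in the normal library. Both J numbers were 40 or above in 126 and 99 cells, 1 of them in 170 and 110, and neither in the rest. Where one chain had TRAJ40 or above, the other did in 59.7% and 64.3% of cases, against 28.1% and 25.6% of all contigs in these cells. The Spearman correlation of the 2 J numbers was 0.599 and 0.689, and the median distance between them was 8 and 7 numbers. These values count cells, and cells of 1 clone repeat the same 2 chains, so they are not independent joins. Some of these barcodes may also hold 2 cells. The part of either was not tested.

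The split by Foxp3 asked whether regulatory T cells use other alpha segments than the remaining CD4 T cells of the same lung. In the tumor library they used the J segments nearest to the V array, with numbers of 40 and above, less often. TRAJ1 to TRAJ9, at the far end, were also lower, at 5.54% against 7.55% (ratio 0.734, 0.530 to 0.994). TRAJ20 to TRAJ29 were higher, at 22.3% against 18.9% (1.18, 1.002 to 1.38). TRAJ30 to TRAJ39 had a ratio of 1.13 (0.986 to 1.29) and TRAJ10 to TRAJ19 one of 1.09 (0.900 to 1.32). The classes are not separate sets of sequences: 102 of the 849 Foxp3-positive tumor sequences and 18 of the 166 normal ones were also found in the class with no Foxp3 UMI and count on both sides. TRAJ40 and above made up 225 of 849 sequences of the Foxp3-positive class (26.5%, 23.6 to 29.6) and 32.6% (31.4 to 33.9) of the class with no Foxp3 UMI, a ratio of 0.812 (0.703 to 0.933). The normal library gave 47 of 166 (28.3%, 21.6 to 35.8) and 29.9% (28.7 to 31.1), a ratio of 0.948 (0.694 to 1.27). The normal interval includes the tumor ratio, and a difference between the libraries was not tested.

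The tumor difference in TRAJ40 and above was largest in joins of the 3' cluster. The share there was 32.3% (28.0 to 36.8) in the Foxp3-positive class and 43.9% (41.9 to 45.8) in the other, a ratio of 0.736 (0.615 to 0.876). The ratio was 0.912 (0.644 to 1.26) in the D cluster and 0.917 (0.508 to 1.55) in the N cluster. Upstream and downstream V segments had 1.09 (0.121 to 4.76) and 1.00 (0.604 to 1.58). These intervals include 0.736, and a difference between blocks was not tested. The blocks themselves were used alike, the 3' cluster at 52.5% and 48.9% and the D cluster at 29.6% and 30.1%. The 5 naive T cell markers used summed to 1046 CPM in the Foxp3-positive tumor class and 3513 CPM in the other, against 4201 and 4706 CPM in the normal library, and their part in the difference was not tested.

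By single J segment, 10 of 34 (29.4%) were past 1.5-fold between the tumor classes, 2 higher and 8 lower in the Foxp3-positive class. The smaller group held 849 sequences here and 6437 between the libraries. Counting error is therefore larger here, and the shares of segments past the fold are not comparable. TRAJ37 took 70 of 849 sequences (8.24%, 6.48 to 10.3) against 5.29% (4.70 to 5.92), a ratio of 1.56 (1.18 to 2.03). TRAJ23 took 6.60% (5.02 to 8.48) against 4.18% (3.66 to 4.75), a ratio of 1.58 (1.16 to 2.13). Lower were TRAJ58 at 0.334 (0.0887 to 0.891), TRAJ43 at 0.484 (0.253 to 0.851) and TRAJ57 at 0.492 (0.23998 to 0.907). TRAJ6 (0.498), TRAJ53 (0.522), TRAJ9 (0.526), TRAJ45 (0.561) and TRAJ42 (0.635) were also past the fold, with intervals that included 1. Of the 8 lower segments, 6 have numbers above 40, and the others, TRAJ6 and TRAJ9, lie toward the constant region. Not all segments above 40 were lower. Among the 34, TRAJ48 (1.26), TRAJ49 (1.24), TRAJ44 (1.12) and TRAJ52 (1.07) had ratios above 1. TRAJ56 (0.843) and TRAJ50 (0.782) were not past the fold. TRAJ18 (1.14, 0.682 to 1.83) and TRAJ33 (0.865, 0.488 to 1.44) were not past the fold. In the normal library, TRAJ37 gave 6 of 166 sequences of the Foxp3-positive class (ratio 0.732, 0.266 to 1.61) and TRAJ23 gave 11 (1.44, 0.710 to 2.62), counts too small to tell either from the tumor ratios. When J segments were grouped by number there, 0 of 6 groups (0%) were past 1.5-fold, with ratios from 0.771 to 1.11.

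**Figure D4:**
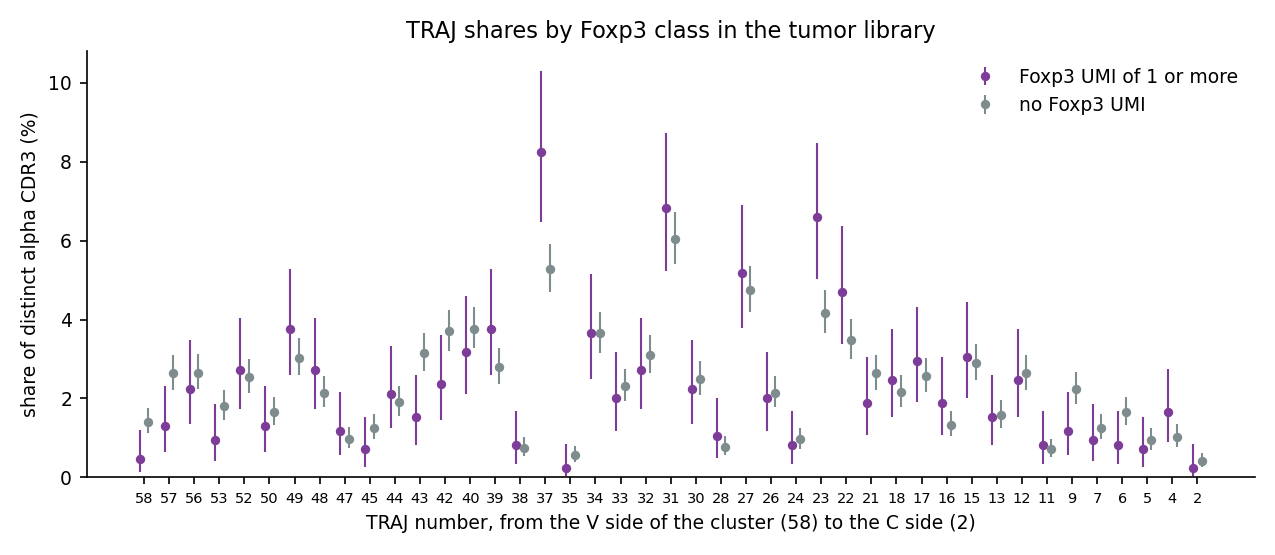
Share of distinct alpha CDR3 sequences (%) for each TRAJ segment in tumor cells with (purple) and without (grey) a Foxp3 UMI, with 95% intervals, ordered from the V side (58) to the constant region side (2). TRAJ37 and TRAJ23 stand higher in the Foxp3-positive class, and TRAJ58, TRAJ57 and TRAJ43 stand lower.

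V segments differed between the tumor classes as well, 8 of 36 (22.2%) past 1.5-fold, although 0 of 13 families (0%) were. The smaller class again held 849 sequences, so this share is not comparable with the one between libraries either. Higher in the Foxp3-positive class were TRAV7-4 (36 sequences, 4.24% against 2.30%, ratio 1.85, 1.24 to 2.70), TRAV6-6 (51 sequences, 6.01% against 3.31%, ratio 1.81, 1.30 to 2.49), TRAV9-2 (1.72, 1.11 to 2.60), TRAV13D-2 (1.62, 1.05 to 2.42) and TRAV7-6 (1.80, 0.986 to 3.14). Lower were TRAV14D-1 (8 sequences, 0.942% against 2.13%, ratio 0.443, 0.187 to 0.903), TRAV5-4 (0.536, 0.271 to 0.967) and TRAV6-7-DV9 (0.587, 0.295 to 1.06). TRAV7-4, TRAV6-6 and TRAV9-2 had median J numbers of 30, 32 and 34 over all tumor cells, and TRAV5-4 and TRAV6-7-DV9, nearer to the J array, 44.5 and 45. TRAV13D-2, also higher in the Foxp3-positive class, had a median of 27. Going the other way, TRAV7-6, higher in that class, had a median of 47, and TRAV14D-1, the lowest ratio of the 36, one of 28. A link between V usage and J number was not tested. TRAV14 was the only family whose interval excluded 1, at 9.78% against 13.5% (0.727, 0.572 to 0.913). In the normal library 1 of 7 families (14.3%) was past the fold, TRAV13 with 21 of 166 sequences (12.7%, 8.004 to 18.7) against 7.94% (1.59, 0.976 to 2.46). The Foxp3-positive classes gave 3 normal sequences with TRAV6-6, 5 with TRAV7-4 and 1 with TRAV9-2, too few for a comparison with the tumor ratios.

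TRAV13D-2 joined to TRAJ27 had the highest share of Foxp3-positive cells among the 5 most used tumor pairs. With sequences found in both classes counted in each, it made up 12 of 849 sequences in that class (1.41%, 0.732 to 2.46) and 13 of 5314 in the other (0.245%, 0.130 to 0.418). Over cells, 50 of the 69 kept tumor cells with the pair had a Foxp3 UMI (72.5%, 60.4 to 82.5), against 16.5% (15.5 to 17.4) of all kept tumor cells with an alpha chain. The 76 tumor cells with the pair carried 23 alpha sequences, 20 residue sequences and 41 beta sequences, so they were not 1 clone. The sequence of 30 cells occurred with 11 beta sequences, of which the largest was in 7 cells, and 23 of its 29 kept cells had a Foxp3 UMI. The sequence of 12 cells occurred with 4 beta sequences and had a Foxp3 UMI in 11 of 11 kept cells, and of the 2 sequences of 4 cells each, 1 had it in 3 of 4 kept cells and the other in 0 of 1. As printed above, they differ in the bases between the segment ends, and all have 13 residues. In the normal library the pair gave 11 sequences in 11 cells, with 0 of 10 kept cells Foxp3-positive. That allows a share of up to 30.8% by the exact interval, and 2.74% of all kept normal cells with an alpha chain were Foxp3-positive. The tumor cells of the pair include repeated clones, and a difference between the libraries was not tested.

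The remaining tumor pairs had lower shares. TRAV7D-2–TRAJ37 had a Foxp3 UMI in 18 of 41 kept tumor cells (43.9%, 28.5 to 60.3), from 30 alpha and 44 beta sequences. TRAV7-4–TRAJ31 had one in 9 of 27 (33.3%, 16.5 to 54.0) and TRAV6-6–TRAJ31 in 7 of 24 (29.2%, 12.6 to 51.1). The second interval includes the overall 16.5%, and the first starts at nearly the same value. Cells of 1 clone are not independent, which the intervals over cells do not allow for. TRAV14N-3–TRAJ31 had one in 1 of 21 (4.76%, 0.120 to 23.8). Sequences of the Foxp3-positive tumor class were more often carried by several cells, 18.7% in 2 or more against 5.04% of the other class. The normal classes gave 1.81% and 6.20%. The Foxp3-positive classes held 999 tumor and 156 normal cells with an alpha chain, and the others 5065 and 5539. With fewer cells a sequence is less likely to be seen again, so shares of classes of such different size are not comparable, within or between libraries.

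Alpha CDR3 lengths were alike in both libraries. The mean was 13.55 ± 1.28 residues (SD over 6647 sequences) in the tumor library and 13.54 ± 1.29 (6437 sequences) in the normal library, and lengths of 13 and 14 residues were the most common, at 30.2% and 30.8% of tumor and 30.7% and 31.1% of normal sequences. Sequences of 13 residues or fewer made up 48.5% (47.2 to 49.7) and 48.97% (47.7 to 50.2). The Foxp3-positive class had 50.6% (47.2 to 54.1) against 48.1% (46.8 to 49.5) in the tumor library and 47.6% (39.8 to 55.5) against 48.98% (47.7 to 50.3) in the normal library, with overlapping intervals in both. Length depended on the J segment more than on the V segment. Differences between J segments accounted for 27.9% of the variance of length in the tumor and 29.4% in the normal library, and differences between V segments for 9.68% and 10.8%. TRAJ43 gave the shortest CDR3s of any J segment in both libraries, 12.4 ± 1.04 and 12.4 ± 1.02 residues, with TRAJ31 next at 12.4 ± 1.14 and 12.4 ± 1.13. TRAJ53 gave the longest in the tumor library (14.9 ± 1.25) and TRAJ2 in the normal library (15.6 ± 1.39, 27 sequences). Among families TRAV15 was longest at 15.5 ± 0.803 and 15.25 ± 1.04 residues, from 32 and 28 sequences.

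**Figure D5:**
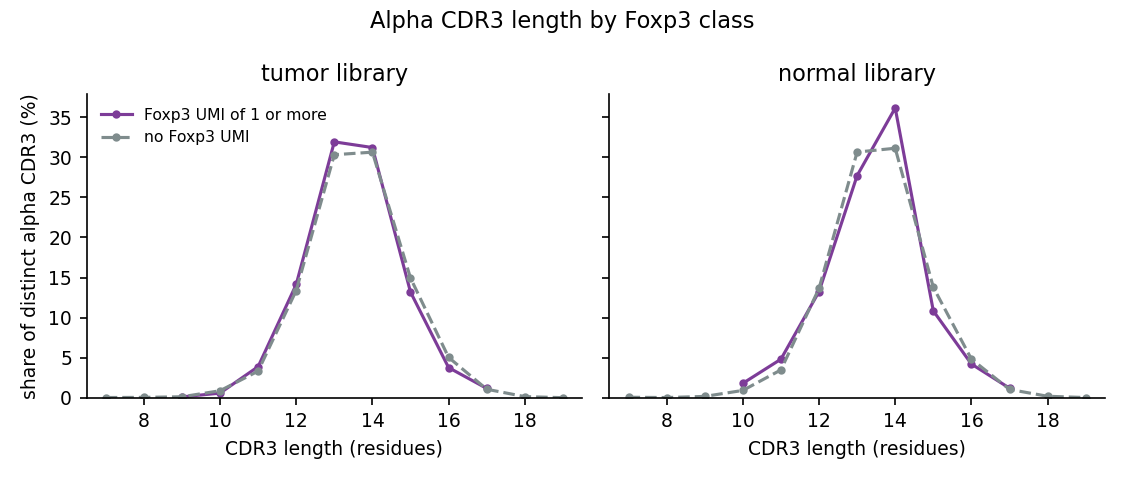
Share of distinct alpha CDR3 sequences (%) by length in residues, for cells with (purple) and without (grey dashed) a Foxp3 UMI in the tumor (left) and normal (right) libraries. The curves lie nearly on each other in the tumor library, and the normal Foxp3-positive curve, from 166 sequences, is more uneven.

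Bases between the segment ends were few. The median was 2 in both libraries, and 15.9% (14.99 to 16.8) of tumor and 15.8% (14.9 to 16.7) of normal sequences had 0, so that the segment ends could supply every base. Sequences found in both libraries had fewer. There were 535 of them, 8.05% of the tumor and 8.31% of the normal sequences, and 46.0% (41.7 to 50.3) of those had 0 bases between the ends in the tumor library against 13.2% (12.4 to 14.1) of sequences found there alone. The normal library gave 47.7% and 12.9%. They were also shorter, with 60% at 13 residues or fewer against 47.4% and 48.0%. All 535 had the same J name in both libraries, 439 the same V family and 199 the same V segment. Requiring the V segment, J segment and sequence to match left 252 shared, 3.66% of the tumor and 3.77% of the normal set.

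No cell barcode carried the same alpha sequence in both libraries, although 76 receptor barcodes and 86 expression barcodes occurred in both, and no alpha-beta pair was shared. Not every cell had a beta contig. The TRAV9-1–TRAJ22 sequence of 43 normal cells was mainly 1 clone, since 32 of its 36 cells with a beta chain had the same one, and its 1 tumor cell had another. TRAV14D-2–TRAJ22 occurred with 8 beta sequences in the tumor and 6 in the normal library, each in 1 cell, and TRAV14-2–TRAJ27 with 6 and 8, again with none in common. Sequencing errors would add sequences 1 base from a common one. Of the sequences 1 base from one of more cells, 512 in the tumor and 450 in the normal library, 1 and 0 shared a beta chain with it.

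The iNKT alpha chain was present at low frequency among the sorted CD4+ T cells of both lungs. TRAV11–TRAJ18 gave 7 sequences (0.105%, 0.0424 to 0.217) in 17 tumor cells (0.258% of cells, 0.1503 to 0.413) and 6 sequences (0.0932%, 0.0342 to 0.203) in 10 normal cells (0.158%, 0.0758 to 0.290), with overlapping intervals. Of the kept cells with the pair, 1 tumor cell had a Foxp3 UMI and 13 had none, and in the normal library 0 and 8. The 0 of 156 normal Foxp3-positive cells allows a share of up to 1.92%. TRAV11 was joined to TRAJ18 in 7 of its 18 tumor and 6 of its 28 normal sequences, and TRAJ32 came next in the tumor library (4) and TRAJ17 in the normal library (5). The 27 cells carried 9 nucleotide sequences, 8 of them of 45 bases (15 residues), which differed at 5 positions between bases 11 and 16. In 23 of the 27 cells 5 of these sequences encode 1 residue sequence, and 4 of the 9 occurred in both libraries, those printed above.

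Beta chains and expression in the same cells were measures the alpha call did not use. Mouse iNKT cells are known for beta chains with TRBV13, TRBV29 and TRBV1. TRBV29 made up 3 of 19 productive beta contigs in tumor TRAV11–TRAJ18 cells (15.8%, 3.38 to 39.6) and 4 of 11 in normal ones (36.4%, 10.9 to 69.2), against 1.59% and 1.72% of all beta contigs. The TRBV13 family made up 6 (31.6%, 12.6 to 56.6) and 4 (36.4%, 10.9 to 69.2), against 14.8% and 15.4%, which both intervals include. Within it TRBV13-1 gave 3 and 3 contigs, TRBV13-2 2 and 1, and TRBV13-3 1 and 0. TRBV1 gave 2 (10.5%) and 1 (9.09%), against 7.43% and 7.01%. Other segments gave 8 of 19 tumor contigs (42.1%, 20.3 to 66.5) and 2 of 11 normal ones (18.2%, 2.28 to 51.8), against 76.1% and 75.9%. Zbtb16, which encodes PLZF, the factor that directs innate-like T cells, had 25 UMIs in 10 of 13 tumor cells (364 CPM) and 22 UMIs in 5 of 8 normal cells (352 CPM). Other cells with no Foxp3 UMI had 1.01 and 0.586 CPM, with a UMI in 0.238% and 0.108% of cells. The median depths were 3888 and 4149 UMIs in the tumor library and 7438 and 3963 in the normal library. Il4, a cytokine that iNKT cells make quickly, had 13 and 6 UMIs against 0.776 and 0.631 CPM elsewhere, that is 189 and 96.0 CPM.

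Of the 14 innate-like markers, those expected at 5 or more UMIs were 3 in the tumor and 2 in the normal library, and all were higher by 1.5-fold or more, against 14.1% and 17.6% of all genes so expected. They were Icos (4.39, 3.51 to 5.42, and 2.27, 1.61 to 3.11), Id2 (5.86, 4.29 to 7.81, and 2.59, 1.58 to 4.01) and, in the tumor library, Il2rb (3.29, 2.08 to 4.95). Klrb1c, which encodes NK1.1, had 0 UMIs in both sets of cells. Of the 5 naive markers 4 were lower in the tumor and 5 in the normal library, against 18.1% and 23.5% of all genes so expected, Ccr7 at 0.187 (0.0994 to 0.319) and 0.545 (0.407 to 0.715). Of the 8 CD4 T cell markers Cd4 alone was past the fold, lower at 0.393 (0.144 to 0.855) and 0.214 (0.0440 to 0.624), while Cd3d was level (1.00 and 1.04). UMIs of 1 cell are not independent, and the sets are of 13 and 8 cells.

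The MAIT alpha chain was not seen among the sorted CD4+ T cells, and the limits below hold for those cells alone. TRAV1–TRAJ33 gave 0 of 6647 tumor and 0 of 6437 normal sequences, which allows a share of up to 0.0451% and 0.0466%, and 0 of 6591 and 0 of 6329 cells, which allows up to 0.0455% and 0.0474%. Within the Foxp3 classes the limits were 0.353% and 0.0565% of sequences in the tumor library and 1.81% and 0.0533% in the normal library. Both segments were in use. TRAV1 was joined most to TRAJ15 (4 of 22) in the tumor library and to TRAJ17 (3 of 15) in the normal library, and TRAJ33 occurred in 150 and 137 sequences with other V segments.

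The V calls were also set against V segment transcripts counted in the gene expression libraries. In kept cells with 1 productive alpha and 1 productive beta contig, 85.3% of 9917 tumor and 84.7% of 8645 normal Trav UMIs were of the segment called from the contig, and 11.6% and 12.7% were of another family. A UMI of the called family was found in 71.1% (69.5 to 72.6) and 67.9% (66.3 to 69.4) of cells, against 1.30% and 1.1996% of cells called for other families. Only 24 and 19 Traj UMIs were found, so J calls could hardly be checked this way. Where the same alpha and beta sequences recurred in 2 or more cells, the V name differed between cells in 1 of 173 tumor and 2 of 114 normal receptors.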

How the data were processed

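One T cell receptor and one 5′ gene expression library were analysed for each of tumor and normal lung. The deposited UMI counts per gene and per contig were made by the authors with Cell Ranger 3.1.0 per the file headers and mm10 per the submitters' processing notes; the version of the receptor assembler is not given in the sources used here. No column of values was left without a sample (0).

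Shares were computed over distinct CDR3 nucleotide sequences of productive alpha contigs, for a library over all such contigs. Foxp3 classes used barcodes with at least 500 genes, under 10% mitochondrial UMIs, at most 2 productive alpha and at most 1 productive beta contig, and no doublet caller was run. A cell with 1 or more Foxp3 UMI was called Foxp3-positive, and a cell with none may still express the gene. Between 2 groups a segment was past the fold at 1.5-fold either way if 10 or more sequences were expected in the smaller group. For genes the minimum was 5 expected UMIs. Intervals are 95% Clopper-Pearson for shares and exact conditional for ratios, and a count of 0 allows up to 3 counts. V and J ends were consensus bases of a segment's sequences (10 or more sequences, 50% or more of them). Nonproductive contigs were counted once per cell, V and J. Positions are from the RefSeq table of GRCm38.p6, in which all 134 segments matched.

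Named in the text are the most used segments and pairs, segments past the fold, the invariant pairs and their marker genes. Members and gene lists were chosen with earlier results of these data known. Blocks by locus place were added after the data had been seen, and 1 gene of the naive list is not reported here. Alternatives were counting cells, other folds and minimums, merged copies, contigs of 2 or more UMIs, Foxp3 of 2 or more UMIs, thinning to 2000 UMIs and other cell filters. Python 3.11.15, pandas 2.3.3, numpy 2.4.6, scipy 1.17.1 and matplotlib 3.10.9 were used, and the scripts were tested on simulated data.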

Additional observations from a re-analysis of the deposited data

Results flagged for a closer look

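Contigs that joined a delta V segment (TRDV) to a TRAJ segment, which the comparisons do not use, numbered 80 in the tumor and 83 in the normal library. TRDV1 gave 64 of them in each, and TRAC was the constant segment in 79 and 78. TRAJ40 and above made up 87.5% (78.2 to 93.8) and 80.7% (70.6 to 88.6), and the median J number was 49 in both. They were in 79 and 82 barcodes, of which 46 and 48 also had a productive alpha contig. The assembler marked 0 of these TRDV contigs as productive, and whether their reading frames were open was not examined.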

How the results depend on the processing

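Of 162 alternative values for 30 results, 137 stayed close and 25 moved, while TRAJ40 and above by block stayed close in 40 of 40. With a 1.2-fold limit the counts past the fold rose between tissues to 4 families, 27 V and 7 J segments, between tumor classes to 6, 21 and 18, and between normal classes to 4 families and 1 J group. Counting cells gave 7 V and 1 J segments between tissues, and 4 families and 17 V segments between tumor classes; TRAV11–TRAJ18 was then 0.225% of tumor contigs. Kept cells alone gave 2 V segments between tissues, and contigs of 2 or more UMIs 1 J segment. A minimum of 5 expected gave 1 family and 15 V segments (tumor classes) and 2 families (normal). Merged copies gave 4 V segments in the tumor classes. Foxp3 of 2 or more UMIs gave 2 families in the tumor library, 1 J group in the normal library, and 0% TRAV11–TRAJ18 in the Foxp3-positive tumor class. Thinning to 2000 UMIs gave 1 tumor and 0 normal families. With exactly 1 alpha and 1 beta, TRAV15 to TRAV23 had 65.0% TRAJ40 and above in the tumor library. The cause was not tested. Of 126 alternatives for single segments between classes, 118 kept the fold and 8 lost it. Between tissues 15 of 20 kept the fold and 5 lost it. No paired analysis was possible because each group has 1 library. Few sequences in the normal Foxp3-positive class (166) limit what it can show.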

Other observations

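Different nucleotide sequences often encoded the same alpha CDR3. The tumor library held 5844 residue sequences and the normal library 5669, of which 10.5% and 10.4% came from 2 or more nucleotide sequences. The libraries shared 1119 residue sequences, 19.1% of the tumor and 19.7% of the normal ones, and 627 of these had no nucleotide sequence in common.

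A cysteine inside the CDR3 was rare, with 4 of 6647 tumor sequences (0.0602%, 0.0164 to 0.154) and 14 of 6437 normal sequences (0.217%, 0.119 to 0.365).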
